A study of Mus musculus with 40 samples.

Results

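PAX5-G183V was compared with wild-type PAX5 on 14 of the 40 arrays of the series, 7 with the label PAX5-G183V and 7 with the label PAX5-WT, taken by their titles. All 14 hold total RNA of J558LuM, a mouse plasmacytoma line, transduced with a PAX5 construct. PAX5-WT carried the wild-type factor and PAX5-G183V, as its name gives it, a valine in place of a glycine. The groups share the cell line and the transduction itself, no treatment was given, and MIR, the empty vector (7 arrays), and PAX5-Δ2-6, PAX5-P80R (6 arrays each) and PAX5-G183S (7 arrays) are used below only for reference. Each array has a transduction number of its own, so the arrays are separate transductions of a single line. P-values take the arrays as replicates, although the arrays came in runs of transduction numbers, a limit given below. J558LuM is a transformed plasma cell line and not a B cell precursor, which limits it as a model of the leukaemia that the series title names. The sources used here do not say how far transduced cells were selected before RNA isolation.

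PAX5 is the transcription factor that commits lymphoid precursors to the B cell lineage and keeps mature B cells what they are. It activates genes such as those of the B cell receptor and represses genes of other lineages, and it is switched off when a B cell becomes a plasma cell. The octapeptide, where the G183V change lies, binds co-repressors of the Groucho (TLE) family, so the comparison asks which transcripts differ when that motif is altered in an otherwise intact factor. A plasmacytoma line is a plasma cell background into which the factor is put back.

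The labels name 2 plates and 2 RNA isolation batches. Each group had 4 arrays on plate 1 and 3 on plate 2. In isolation batch 1 the PAX5-WT arrays came from transductions 36 to 43 (replicates 1 to 4) and the PAX5-G183V arrays from transductions 7 to 9 (replicates 1 to 3). In isolation batch 2 they came from transductions 61 to 63 (replicates 5 to 7) and 46 to 50 (replicates 4 to 7). The groups therefore never shared a run of transduction numbers, and construct and run cannot be told apart within a batch. Both groups had a single run in each batch. P-values within a batch, and those of a change between batches, measure the spread of arrays within group and batch. They do not measure the spread between runs of the same construct. The fit over both batches also takes each array as independent, although each construct had only 2 runs. Its n of 7 and 7 counts arrays and not runs, and its p-values do not have runs as the replicates. Array medians lay between 4.21 and 4.274 on the log2 scale, the closest pair of arrays had r = 0.9977, and 0 pairs were identical.

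Plasma cell identity genes had high levels in both groups. All 13 measured of a list of 17 lay above the array median, where 9843 of 17097 genes tested did. Above it were 5 of 12 T cell, 1 of 13 fibroblast, 3 of 9 erythroid and 2 of 14 myeloid markers. Other lists stood as high, with 21 of 21 unfolded protein response and 28 of 29 cell cycle genes. The count alone therefore does not mark a cell type. The probe set of Pax5 had a mean of 4.77 in PAX5-WT and 4.88 in PAX5-G183V, a difference of 0.11 ± 0.15 (SE, n = 7 and 7; limma adjusted p = 0.842). The sources used here do not say whether this mouse probe set detects the transduced sequence, so it does not check the labels. Cd79a, the B cell receptor subunit gene that PAX5 activates in B cells, differed by 0.04 ± 0.08 (adjusted p = 0.892) and lay near the array median, between 4.00 and 4.50 in all 14 arrays.

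Over both isolation batches, PAX5-G183V differed from PAX5-WT in 25 of 17097 genes (0.146%; limma, Benjamini-Hochberg adjusted p under 0.05), with 16 lower (0.0936%) and 9 higher (0.0526%). With arrays centred on their medians the split was 15 lower and 14 higher. An unadjusted p under 0.05 was found for 1966 genes (11.5%). The differences were small: 3 of the 25, Ets1, Epsti1 and Fhod3, reached 1.5-fold (0.0175%). In 10 of the 25 the arrays of the groups did not overlap (0.228% of all genes), 8 of them with all PAX5-G183V arrays below (0.152% of all genes) and 2 with all above (0.076%). The RNA is bulk, so fewer cells with a transcript and less of it per cell cannot be told apart. The count ran from 5 without PAX5-WT replicate 6 to 33 without PAX5-G183V replicate 3, and fits with more terms for the runs moved it further, as the closing part gives. With only the 14 arrays of the groups in the fit, 18 genes were called, 9 of them among the 25. After subtraction of PAX5-Δ2-6 minus MIR, a difference between other runs of transductions with all PAX5-Δ2-6 arrays on plate 2, limma called 0 genes, with an unadjusted p under 0.05 for 855 and a larger median SE (0.115 against 0.0771).

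**Figure D1:**
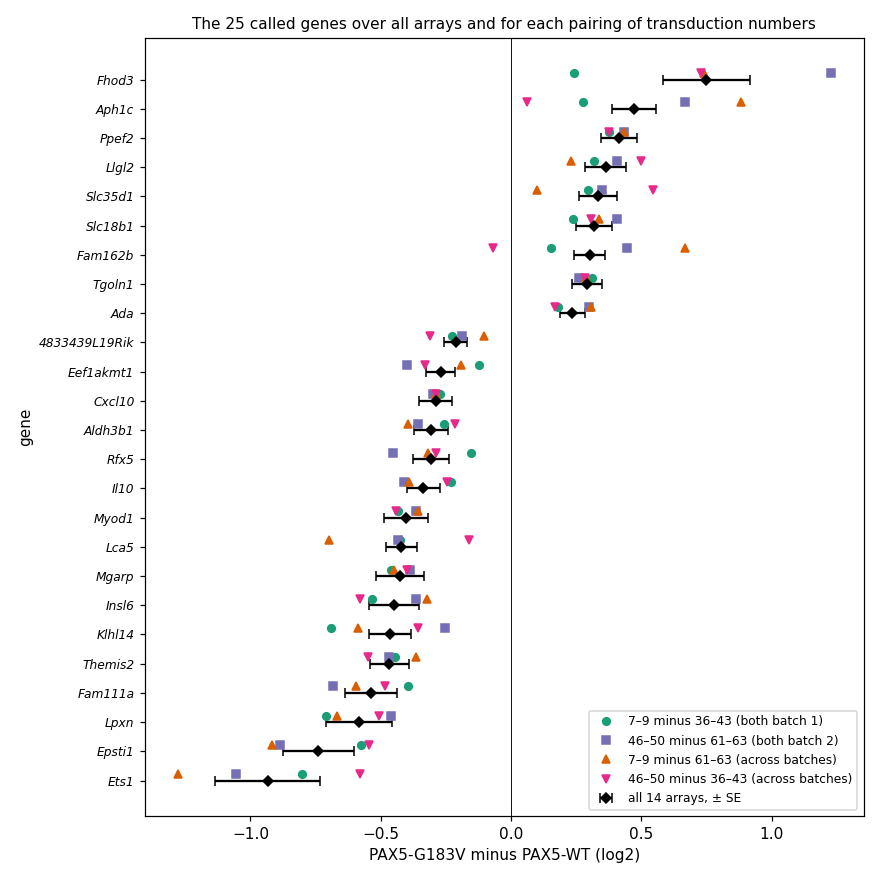
Difference between PAX5-G183V and PAX5-WT (horizontal axis, log2) for each of the 25 called genes (rows). Black diamonds with bars are the fit over all 14 arrays ± SE, and the coloured symbols are the same gene's difference for each of the 4 pairings of transduction numbers. In 24 of 25 genes all 4 symbols lie on the same side of 0; Fam162b is the exception.

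Ets1, Themis2 and Rfx5, which act in lymphocyte transcription and signalling, were among the lower genes. Ets1, an ETS family transcription factor of lymphocytes that restrains plasma cell differentiation, lay at 6.17, 6.00, 6.23 and 6.09 in PAX5-WT transductions 36 to 43, and at 6.67, 6.24 and 6.76 in transductions 61 to 63. In PAX5-G183V it lay at 5.50, 5.26 and 5.08 in transductions 7 to 9 and at 5.42, 5.64, 5.79 and 5.33 in transductions 46 to 50. Every PAX5-G183V array was below every PAX5-WT array, and both groups were far above the MIR arrays, which lay between 3.16 and 4.45. The difference was -0.93 ± 0.20 (SE, n = 7 and 7; limma adjusted p = 0.0374). All 4 probe sets of Ets1 were lower, from -1.04 to -0.10. With 1 array left out at a time the call stood without PAX5-WT replicate 4, PAX5-G183V replicate 1 or PAX5-G183V replicate 2, and was lost without any of the other 11, with adjusted p up to 0.103 and differences of -1.01 to -0.86.

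Themis2, an adaptor of B cell receptor signalling, had PAX5-WT levels of 7.66, 7.74, 7.49 and 7.37 in transductions 36 to 43 and 7.68, 7.61 and 7.19 in transductions 61 to 63. Its PAX5-G183V levels were 7.12, 7.16 and 7.11 in transductions 7 to 9, and 6.93, 6.99, 7.04 and 7.10 in transductions 46 to 50. The groups did not overlap, although PAX5-WT replicate 7 came close to the PAX5-G183V arrays. The difference was -0.47 ± 0.08 (adjusted p = 0.00301), nearly the same in the batches (-0.45 and -0.47), and it was called without each array in turn. Rfx5, an activator of MHC class II promoters, ranged from 8.52 to 8.86 in PAX5-WT (median 8.62) and from 8.17 to 8.61 in PAX5-G183V (median 8.36), so the arrays overlapped. Its difference of -0.31 ± 0.07 (adjusted p = 0.0466) was -0.15 in isolation batch 1 and -0.45 in isolation batch 2, and the call stood only without PAX5-WT replicate 3, PAX5-G183V replicate 2 or PAX5-G183V replicate 3.

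Epsti1 and Cxcl10, both known to be induced by interferon, were also lower. Epsti1, an interferon-induced gene, lay at 5.42, 5.34, 5.12 and 5.71 in PAX5-WT transductions 36 to 43 and at 5.42, 5.96 and 5.72 in transductions 61 to 63. In PAX5-G183V it lay at 5.03, 4.72 and 4.61, and at 4.63, 4.69, 4.99 and 5.09. The groups did not overlap, and the difference was -0.74 ± 0.14 (limma adjusted p = 0.00837). The 2 probe sets of Epsti1 were both lower, but unequally, at -0.74 and -0.17. PAX5-WT itself was not called against the empty vector here (0.21 ± 0.14, adjusted p = 0.474), and without PAX5-WT replicate 6, the highest array, the adjusted p was 0.0556 at -0.67. Cxcl10, a chemokine gene of the interferon response, ranged from 3.68 to 4.05 in PAX5-WT (median 3.89) and from 3.54 to 3.65 in PAX5-G183V (median 3.57), without overlap. The difference was -0.29 ± 0.06 (adjusted p = 0.0403), at levels under the array median, and the call stood only without PAX5-WT replicate 2, PAX5-WT replicate 3 or PAX5-G183V replicate 2. Of 24 measured genes of an interferon list, which does not hold Cxcl10, Epsti1 alone was called, against 0.146% of all genes, and the median difference of the list was -0.05 against 0.00 over all genes.

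Promoter windows of 250 bases before the start were found in RefSeq tables (GRCm38.p6) for 16 of the 25 called genes. The interferon-stimulated response element was searched on both strands as GAAA, any 2 bases and GAAA again. It was in 1 of the 16, that of Cxcl10, and in 3.09% of the 13605 tested genes with a window. The core of the PAX5 site searched for, GCGTGAC on both strands, was in 0 of the 16 and in 3.12% of the 13605 genes. Matching these letters is a description of the window, not evidence of binding. The Cxcl10 window is shown because it is the only called promoter with a match. It lies at chr5:92348890-92349139 on the minus strand, with the matched element in capitals, 213 bases before the start.
Cxcl10: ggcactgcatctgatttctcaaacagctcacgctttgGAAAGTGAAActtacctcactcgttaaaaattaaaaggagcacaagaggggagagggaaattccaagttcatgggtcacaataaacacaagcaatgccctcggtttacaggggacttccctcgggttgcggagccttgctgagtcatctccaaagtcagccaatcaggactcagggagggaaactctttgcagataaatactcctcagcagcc

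Several lower genes have no list in common but were among the steadiest. Lca5, which encodes a ciliary protein, lay at 7.92, 7.89, 7.69 and 7.86 and at 8.33, 7.96 and 8.12 in the PAX5-WT batches, and at 7.48, 7.46 and 7.37 and at 7.90, 7.48, 7.70 and 7.64 in the PAX5-G183V batches. PAX5-G183V replicates 4 and 6 reached into the PAX5-WT range. The difference was -0.42 ± 0.06 (adjusted p = 0.000652), the smallest adjusted p of the comparison, and it was -0.43 in each isolation batch. Klhl14, an adaptor of cullin ubiquitin ligases, ranged from 3.99 to 4.59 in PAX5-WT (median 4.21) and from 3.50 to 4.12 in PAX5-G183V (median 3.69), a difference of -0.46 ± 0.08 (adjusted p = 0.00614) at levels around the array median. It was -0.69 in isolation batch 1 (adjusted p = 0.000414) and -0.25 in isolation batch 2 (adjusted p = 0.169). Both genes stayed called without each array in turn.

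Fam111a, which encodes a protease of DNA replication, ranged from 4.59 to 5.13 in PAX5-WT (median 5.06) and from 4.24 to 4.74 in PAX5-G183V (median 4.40). The difference was -0.54 ± 0.10 (adjusted p = 0.00837), and without PAX5-WT replicate 6 the adjusted p was 0.0505. Lpxn, a focal adhesion protein of the paxillin family found in lymphocytes, ranged from 6.30 to 6.79 in PAX5-WT (median 6.64) and from 5.68 to 6.10 in PAX5-G183V (median 6.07). Mgarp, a mitochondrial protein gene, ranged from 8.73 to 9.26 (median 8.97) and from 8.42 to 8.66 (median 8.52). Neither gene's groups overlapped, and the differences were -0.58 ± 0.13 (adjusted p = 0.0391) and -0.43 ± 0.09 (adjusted p = 0.0374). Of the fits without 1 array, Lpxn was called in that without PAX5-WT replicate 4, and Mgarp in those without PAX5-WT replicate 4, PAX5-G183V replicate 3 or PAX5-G183V replicate 6.

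The cytokine gene Il10 ranged from 10.39 to 10.72 in PAX5-WT (median 10.61) and from 10.16 to 10.39 in PAX5-G183V (median 10.29). No arrays overlapped before rounding, and the difference was -0.34 ± 0.06 (adjusted p = 0.0131). Its adjusted p was 0.0536 without PAX5-WT replicate 6 and 0.0528 without PAX5-G183V replicate 4. The remaining lower genes were Insl6, an insulin-like peptide gene (-0.45 ± 0.10), the muscle regulator Myod1 (-0.40 ± 0.09, under the array median), the aldehyde dehydrogenase Aldh3b1 (-0.31 ± 0.07), the lysine methyltransferase Eef1akmt1 (-0.27 ± 0.06) and 4833439L19Rik (-0.21 ± 0.04; chosen with its value in view), with adjusted p from 0.0268 to 0.0374. Of 3 probe sets of 4833439L19Rik, 1 was lower.

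Among the higher genes, Ppef2, a calcium-binding phosphatase, had little spread within the groups. Its PAX5-WT levels were 6.08, 6.02, 6.14 and 6.10 in transductions 36 to 43 and 6.04, 6.03 and 6.00 in transductions 61 to 63. In PAX5-G183V they were 6.47, 6.47 and 6.43 in transductions 7 to 9, and 6.49, 6.48, 6.48 and 6.39 in transductions 46 to 50. The groups did not overlap, and the PAX5-G183V arrays lay within the MIR range of 6.11 to 6.74. The difference was 0.41 ± 0.07 (SE, n = 7 and 7; limma adjusted p = 0.00512), 0.38 and 0.43 in the isolation batches, and it was called without each array in turn.

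Fhod3, a formin that assembles actin, had the largest rise. It lay at 5.28, 6.10, 5.52 and 5.23 and at 5.26, 4.83 and 5.04 in the PAX5-WT batches, and at 5.79, 5.67 and 5.90 and at 6.41, 6.12, 6.12 and 6.40 in the PAX5-G183V batches. PAX5-WT replicate 2 lay inside the PAX5-G183V range. The difference of 0.75 ± 0.17 (adjusted p = 0.0466) was 1.23 in isolation batch 2 (adjusted p = 0.000691) and 0.24 in isolation batch 1 (adjusted p = 0.846), and the call stood only without PAX5-WT replicate 2 or PAX5-G183V replicates 1, 2 or 3. Aph1c, a subunit of gamma-secretase, ranged from 5.82 to 7.06 in PAX5-WT (median 6.69) and from 6.63 to 7.23 in PAX5-G183V (median 7.01). Its difference of 0.47 ± 0.08 (adjusted p = 0.0073) was called without each array in turn, and it was 0.28 and 0.67 in the batches.

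Tgoln1, a protein of the trans-Golgi network, ranged from 7.31 to 7.47 in PAX5-WT (median 7.43) and from 7.53 to 7.90 in PAX5-G183V (median 7.72), without overlap, a difference of 0.29 ± 0.06 (adjusted p = 0.0169). Ada, which encodes adenosine deaminase, ranged from 9.02 to 9.29 (median 9.17) and from 9.26 to 9.48 (median 9.42), a difference of 0.24 ± 0.05 (adjusted p = 0.0216). The other higher genes were the polarity gene Llgl2 (0.36 ± 0.08), the nucleotide sugar transporter Slc35d1 (0.33 ± 0.07), the polyamine transporter Slc18b1 (0.32 ± 0.07, under the array median) and Fam162b (0.30 ± 0.06), with adjusted p from 0.0242 to 0.0374. The 2 probe sets of Slc35d1 were at 0.33 and 0.006.

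Cd36 and Asb9, whose levels with both constructs lay far from those of MIR, had no called difference between the constructs. Cd36, a scavenger receptor gene, ranged from 9.86 to 10.65 in PAX5-WT (median 10.37) and from 9.55 to 10.77 in PAX5-G183V (median 10.51), against 3.56 to 5.89 in MIR, and differed by -0.16 ± 0.28 (adjusted p = 0.875). Asb9, a gene of a ubiquitin ligase adaptor, ranged from 4.75 to 6.13 in PAX5-WT (median 5.00) and from 5.16 to 5.60 in PAX5-G183V (median 5.28), against 8.41 to 9.29 in MIR, and differed by 0.17 ± 0.15 (adjusted p = 0.71).

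Set beside the empty vector, 13 of the 16 lower genes were higher in PAX5-WT than in MIR in the point estimate, and 8 of the 9 higher genes were lower in PAX5-WT than in MIR. These values share the PAX5-WT arrays with the comparison and are given side by side only. PAX5-WT minus MIR was 2.68 ± 0.20 for Ets1, 1.89 ± 0.09 for Mgarp, 1.28 ± 0.13 for Lpxn, 0.91 ± 0.10 for Fam111a and -0.40 ± 0.05 for Ada. Of the 25 genes, 16 were called between PAX5-WT and MIR, where 6.43% of all genes were.

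**Figure D2:**
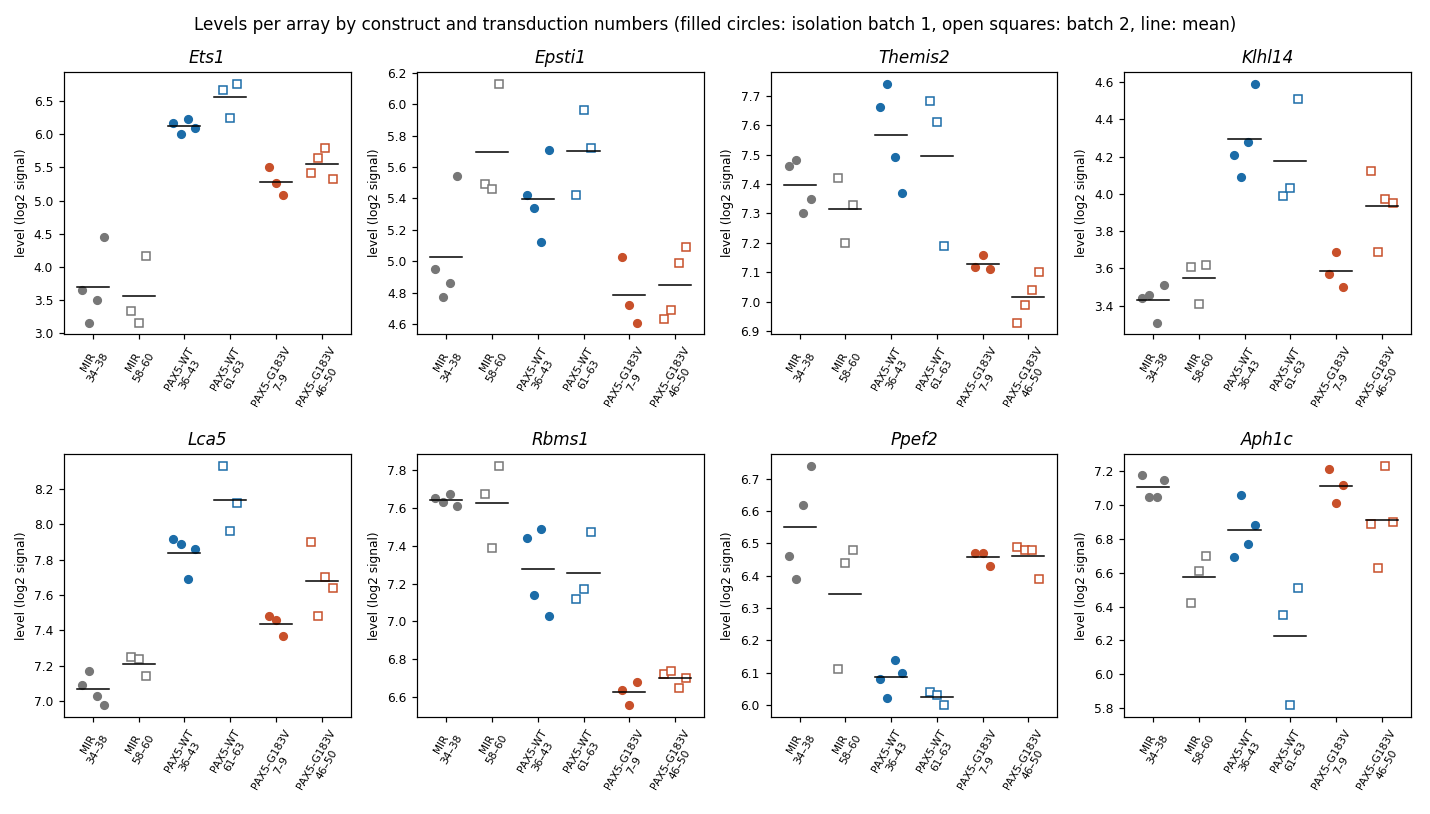
Level on the log2 scale (vertical axis) of 8 genes in each MIR (grey), PAX5-WT (blue) and PAX5-G183V (orange) array, by transduction numbers (horizontal axis). Filled circles are isolation batch 1, open squares batch 2, and lines the means. In Ets1, Epsti1, Themis2, Rbms1 and Ppef2 no PAX5-G183V array reaches a PAX5-WT array; Klhl14, Lca5 and Aph1c overlap.

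Each construct also differed between its own runs of transductions, PAX5-WT in 1127 genes (6.59%) and PAX5-G183V in 1044 (6.11%). In a fit with a term for each construct in each batch, 44 genes (0.257%) differed in isolation batch 1 and 735 (4.3%) in isolation batch 2. Called in both were 17 genes, of which 2, Lca5 and Rbms1, went the same way and 15 went opposite ways. Across 17097 genes the batch differences had Pearson's r = -0.06 and Spearman's rho = 0.01, as a description, since genes are not independent replicates. The 25 genes of the pooled comparison were all called by the average of the batch differences, a fit chosen after the data were seen, which called 124 genes (0.725%; 63 higher, 61 lower). Of the 25, 0 had a called change of the difference between batches, where 1.84% of all genes had one (limma interaction term, with unadjusted p under 0.05 for 6 of the 25). The pooled fit has no term for such a change, which adds to its spread. Genes that change are therefore less likely to be among the 25, and this count cannot show that the 25 are steady.

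Rbms1, a single-stranded nucleic acid binding protein, was called in both batches but not in the pooled fit. It lay at 7.44, 7.14, 7.49 and 7.03 and at 7.12, 7.17 and 7.47 in the PAX5-WT batches, and at 6.64, 6.56 and 6.68 and at 6.72, 6.74, 6.65 and 6.70 in the PAX5-G183V batches. All PAX5-G183V arrays lay below all PAX5-WT arrays. The difference was -0.64 ± 0.10 in isolation batch 1 (limma adjusted p = 0.000699), -0.56 ± 0.10 in isolation batch 2 (adjusted p = 0.000804), and -0.56 ± 0.15 in the pooled fit (adjusted p = 0.11). MIR lay between 7.39 and 7.82.

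In 314 genes (1.84%; 158 higher, 156 lower) the difference between PAX5-G183V and PAX5-WT changed from isolation batch 1 to isolation batch 2 at an adjusted p under 0.05 (limma interaction term). P2ry10, a lysophospholipid receptor of lymphocytes, changed most. It lay at 4.12, 4.55, 4.25 and 3.56 in PAX5-WT transductions 36 to 43 and at 6.83, 5.88 and 6.68 in transductions 61 to 63. PAX5-G183V ran the other way, with 6.57, 6.47 and 6.11 in transductions 7 to 9 and 3.84, 3.53, 3.77 and 3.85 in transductions 46 to 50. All MIR and PAX5-Δ2-6 arrays stayed between 3.04 and 3.51. The difference was 2.30 ± 0.35 in isolation batch 1 and -2.76 ± 0.35 in isolation batch 2, a change of -5.06 ± 0.50 (adjusted p = 2.14e-07), and -0.29 ± 0.52 in the pooled fit (adjusted p = 0.88).

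**Figure D3:**
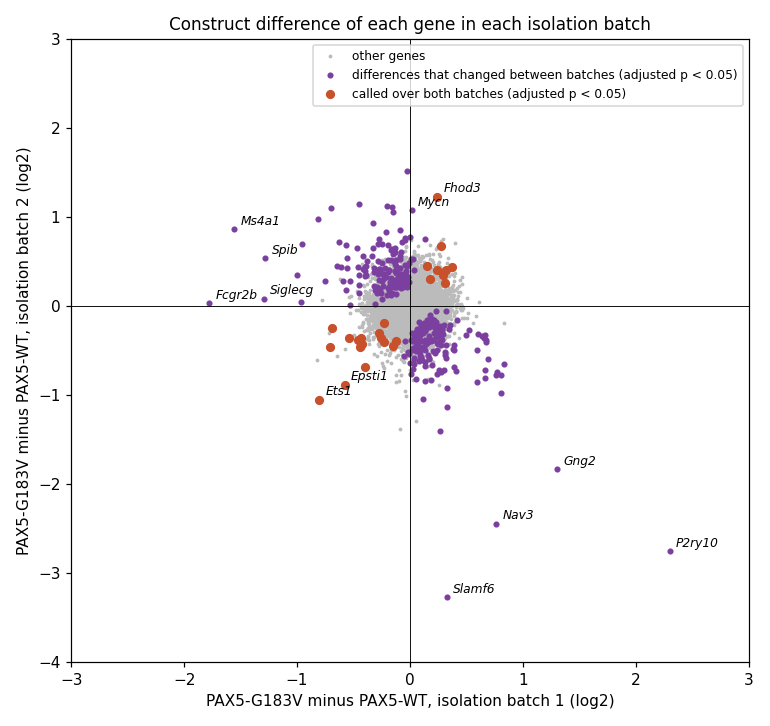
Difference between PAX5-G183V and PAX5-WT (log2) of each of 17097 genes in isolation batch 1 (horizontal axis) and isolation batch 2 (vertical axis). Orange points are the 25 called genes, purple points the 314 genes whose difference changed between batches, and grey points the rest. P2ry10, Gng2 and Nav3 lie at lower right, Ms4a1 and Spib at upper left, and Ets1 and Epsti1 at lower left.

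Gng2, a G protein gamma subunit, showed the same pattern. PAX5-WT lay at 4.78, 4.62, 4.62 and 4.66 and then at 6.19, 6.39 and 6.40, and PAX5-G183V at 5.82, 6.29 and 5.79 and then at 4.56, 4.53, 4.36 and 4.54. The change of the difference was -3.14 ± 0.33 (adjusted p = 4.23e-07). Nav3, a microtubule-binding protein, lay at 8.84, 8.53, 8.48 and 8.43 and then at 9.99, 10.08 and 10.09 in PAX5-WT, and at 9.37, 9.34 and 9.24 and then at 7.77, 7.44, 7.77 and 7.53 in PAX5-G183V. Its difference was 0.77 ± 0.29 and -2.45 ± 0.29, a change of -3.21 ± 0.41 (adjusted p = 1.16e-05). Slamf6, a lymphocyte receptor, was similar in isolation batch 1 (0.33 ± 0.24, adjusted p = 0.805) and much lower in isolation batch 2 (-3.27 ± 0.24, adjusted p = 1.57e-10). Its PAX5-WT arrays of transductions 61 to 63, at 9.29, 9.17 and 9.65, stood above the other 11 arrays, which lay between 5.90 and 7.09.

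Ms4a1, Fcgr2b, Siglecg and Spib changed in the positive direction. Ms4a1, the gene of the B cell antigen CD20, lay at 9.73, 9.59, 9.48 and 9.23 and then at 8.52, 8.49 and 8.52 in PAX5-WT, and at 7.99, 7.99 and 7.93 and then at 9.35, 9.34, 9.25 and 9.46 in PAX5-G183V. The difference was -1.56 ± 0.20 in isolation batch 1 and 0.86 ± 0.20 in isolation batch 2, a change of 2.42 ± 0.29 (adjusted p = 7.63e-06). Fcgr2b, the inhibitory Fc receptor, lay at 10.13, 9.88, 9.84 and 9.60 and then at 8.75, 8.90 and 8.98 in PAX5-WT, and at 8.14, 8.14 and 8.00 and then at 8.88, 8.88, 8.82 and 8.99 in PAX5-G183V. Its difference of -1.78 ± 0.25 in isolation batch 1 (adjusted p = 0.000381) was 0.03 ± 0.25 in isolation batch 2 (adjusted p = 0.978). Siglecg, an inhibitory receptor of B cells, had -1.30 and 0.08, and Spib, an ETS factor of B cells, -1.28 and 0.54, with changes of 1.38 ± 0.28 and 1.82 ± 0.29 (adjusted p = 0.00502 and 0.000358).

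Mycn, a MYC family transcription factor that fell with PAX5-WT, was level in isolation batch 1 and higher with PAX5-G183V in isolation batch 2. It lay at 12.15, 11.98, 12.15 and 11.68 and then at 11.38, 11.45 and 11.20 in PAX5-WT, and at 12.05, 12.00 and 12.03 and then at 12.41, 12.45, 12.32 and 12.41 in PAX5-G183V, against 13.58 to 13.81 in MIR. The difference was 0.01 ± 0.09 and 1.07 ± 0.09 (adjusted p = 0.989 and 4.89e-09), and 0.53 ± 0.14 in the pooled fit (adjusted p = 0.0943). Id3, an inhibitor of E proteins, had -0.46 ± 0.14 and 1.15 ± 0.14. Each of the changes given for P2ry10, Gng2, Nav3, Slamf6, Ms4a1, Fcgr2b, Siglecg, Spib, Mycn and Id3 was called without each array in turn.

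**Figure D4:**
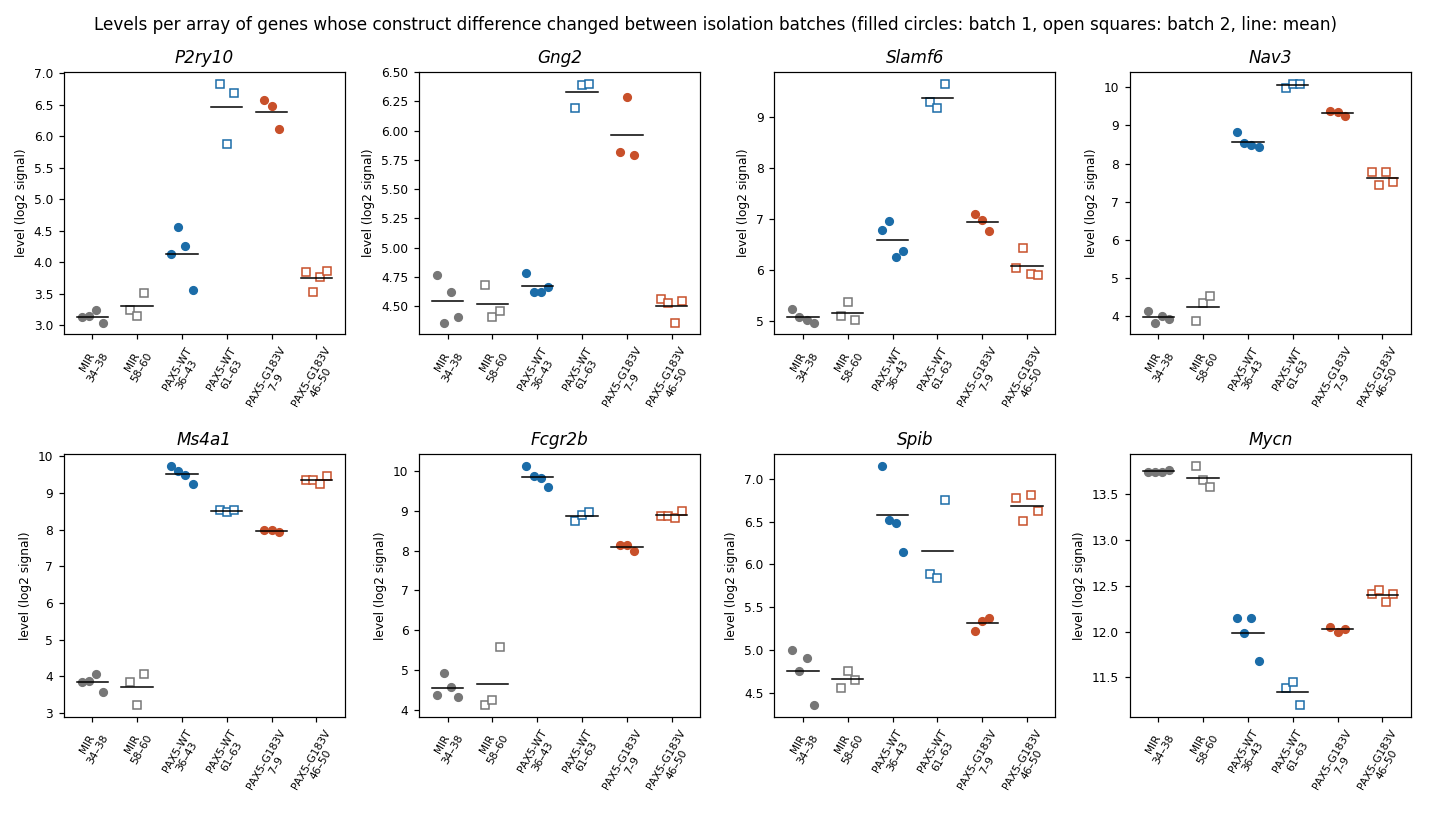
Level on the log2 scale (vertical axis) of 8 genes whose construct difference changed between isolation batches, by construct and transduction numbers (horizontal axis). Colours, symbols and lines are as in the plot of the called genes. In P2ry10 and Gng2 the PAX5-G183V arrays of transductions 7 to 9 lie near the PAX5-WT arrays of transductions 61 to 63, and those of transductions 46 to 50 near transductions 36 to 43; in Ms4a1 all PAX5-G183V arrays of transductions 7 to 9 lie between 7.93 and 7.99 and all of transductions 46 to 50 between 9.25 and 9.46.

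Other constructs also differed between their runs in some of these genes. PAX5-G183S transductions 41 to 45 had P2ry10 between 3.62 and 3.78 and transductions 64 to 66 between 5.95 and 6.65, in the order of PAX5-WT; its array of transduction 45 belongs to isolation batch 2. In PAX5-P80R, whose transductions 1 to 3 and 48 to 52 lie near those of PAX5-G183V, Spib rose between the batches by 1.69 ± 0.22 (adjusted p = 7.45e-06) and Nav3 fell by 1.04 ± 0.30 (adjusted p = 0.0493), the directions seen in PAX5-G183V, where Spib rose by 1.39 ± 0.21 and Nav3 fell by 1.71 ± 0.29. P2ry10 and Ms4a1 were not called between the PAX5-P80R runs (limma adjusted p = 0.925 and 0.126). Their PAX5-P80R batch means were 3.08 and 3.22, and 3.61 and 4.22, near or under the array median. Why they were not called was not tested. Id3 went opposite ways, with means of 6.74 and 5.84 in PAX5-P80R and 7.60 and 8.28 in PAX5-G183V. Fcgr2b and Mycn rose in both constructs, from 5.62 to 6.25 and from 12.36 to 12.91 in PAX5-P80R.

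MIR and PAX5-Δ2-6 also differed between their runs in some of these genes. Of the 314 genes, 89 were called between the MIR runs of transductions 58 to 60 and 34 to 38, where 4.82% of all genes were, and in 88 of the 89 the MIR difference had the opposite sign to the change (28% of the 314 and 10.7% of the 824 genes called between the MIR runs). Between the PAX5-Δ2-6 runs 37 of the 314 were called, beside 936 of all 17097 genes. Of the 37, 18 had the sign of the change and 19 the opposite sign. PAX5-Δ2-6 minus MIR sets transductions 4 to 6 against 34 to 38 in isolation batch 1 and 53 to 57 against 58 to 60 in isolation batch 2, which are other runs than those of PAX5-G183V and PAX5-WT. It called 0 genes over both batches (limma; unadjusted p under 0.05 for 1308), 4 in isolation batch 1 and 56 in isolation batch 2. In isolation batch 2 its differences had r = 0.483 (Spearman's rho 0.408) across genes with PAX5-G183V minus PAX5-WT, a comparison of other arrays. Of the 56 genes 18 (32.1%) and of the 274 of that batch's arrays alone 6.57% were called in both in the same direction, and 0 in opposite directions. In isolation batch 1 the correlation was -0.06.

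Jchain, whose product joins antibody polymers, is a gene of this kind. It lay at 12.44, 12.36, 12.45 and 12.43 in MIR transductions 34 to 38 and at 13.19, 13.12 and 13.16 in transductions 58 to 60. PAX5-WT rose as well, from 11.68, 12.10, 11.99 and 12.15 to 12.99, 12.95 and 13.03 (1.03 ± 0.11, adjusted p = 5.38e-07, against 0.76 ± 0.11 in MIR, adjusted p = 6.22e-05), while PAX5-G183V lay between 12.05 and 12.31 in both runs. The PAX5-G183V difference was 0.33 ± 0.11 in isolation batch 1 and -0.92 ± 0.11 in isolation batch 2, a change of -1.25 ± 0.16 (adjusted p = 1.52e-05). Cdkn1a, the cell cycle inhibitor p21, and Ifitm3, an antiviral membrane protein, changed between the MIR runs by -0.59 ± 0.08 and -1.22 ± 0.22 (adjusted p = 2.62e-05 and 0.000739), and between the PAX5-WT runs by -0.65 ± 0.08 and -1.23 ± 0.22 (adjusted p = 5.24e-06 and 0.000585). P2ry10, Gng2, Slamf6, Nav3 and Ms4a1 differed by -0.15 to 0.29 between the MIR runs, with limma adjusted p of 0.74 or more. MIR means in isolation batches 1 and 2 were 3.13 and 3.30 for P2ry10, 3.85 and 3.72 for Ms4a1, and 3.98 and 4.25 for Nav3. They were 4.54 and 4.52 for Gng2 and 5.07 and 5.16 for Slamf6. All were under the PAX5-WT means of the same batch, but for Gng2 only narrowly in isolation batch 1, where PAX5-WT had 4.67. In isolation batch 2 Gng2 had a PAX5-G183V mean of 4.50, at the MIR level. MIR does not show how runs move these genes at higher levels, which was not tested.

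The 4 runs were also paired across the batches, a choice made after the data were seen. Transductions 7 to 9 against 61 to 63 gave 739 genes (4.32%) and transductions 46 to 50 against 36 to 43 gave 1356 (7.93%), with 11 called in the same direction and 229 in opposite directions. A shift between isolation batches that both constructs share enters these pairings with opposite signs. In 250 genes PAX5-WT and PAX5-G183V were both called between batches in the same direction. The 229 can hold such shifts and do not show that the construct difference changed. The 11 were Mycn, Il10, Odr4, Ada, Vcl, Mgarp, Rbms1, Ppef2, Epsti1, Fam111a and Klhl14, of which Odr4 and Vcl were named with their values in view. In this pairing P2ry10 differed by -0.08 and -0.37 and Gng2 by -0.36 and -0.17, with adjusted p of 0.536 or more.

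The response to PAX5 as a whole was read over genes that distinguish PAX5-WT from MIR, chosen in one isolation batch and read in the other. Isolation batch 2 chose 229 genes, 151 that rose and 78 that fell with PAX5-WT. Read in isolation batch 1, where the PAX5-WT arrays had a mean signed level above MIR of 0.70 to 0.80, the PAX5-G183V arrays had 0.60 to 0.61, all below. The median signed difference was -0.14, 79.9% of the genes lay toward MIR, and 9.17% were called against 0.234% of all genes. Isolation batch 1 chose 810 genes (421 rose, 389 fell). Read in isolation batch 2, PAX5-WT had 0.35 to 0.40 and PAX5-G183V 0.41 to 0.42, all above, with a median signed difference of 0.03, 44.1% of the genes toward MIR, and 11.4% called against 1.6% of all genes. PAX5-G183V thus stood below PAX5-WT in isolation batch 1 over the 229 genes, and above it in isolation batch 2 over the 810 genes. The batches were read over different gene sets, so a change of batch cannot be told apart from a change of genes. Over genes of at least 2-fold the medians were -0.191 in isolation batch 1 and -0.0145 in isolation batch 2, so the sign in isolation batch 2 turned. PAX5-Δ2-6 arrays lay between -0.005 and 0.021 in isolation batch 1 and between -0.012 and -0.009 in isolation batch 2.

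**Figure D5:**
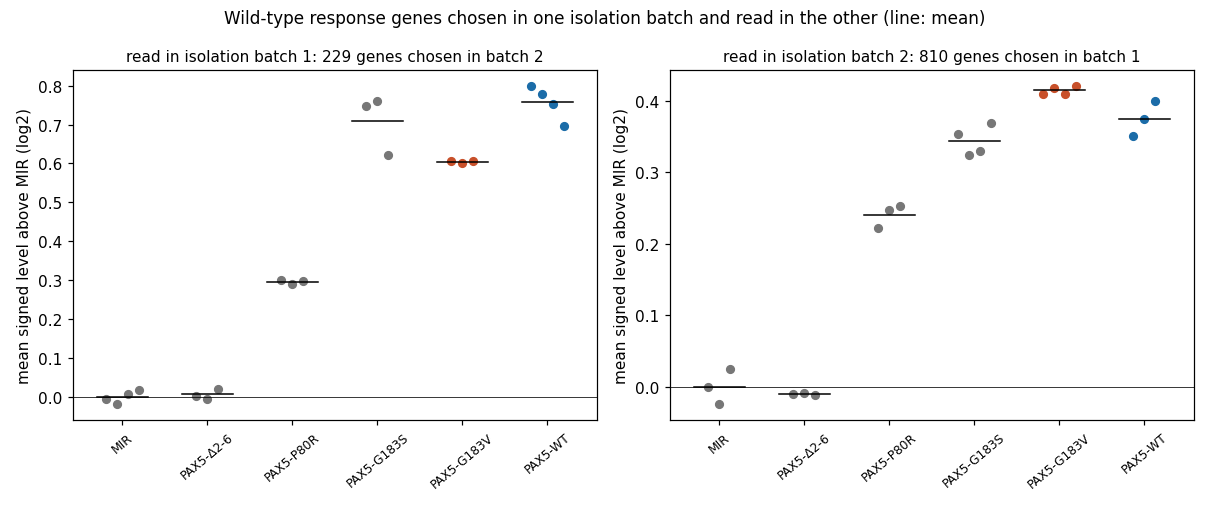
Mean signed level above MIR (vertical axis, log2) of each array over genes that the other isolation batch called for PAX5-WT against MIR, by construct (horizontal axis), with lines for the means. Left, 229 genes read in isolation batch 1: the 3 PAX5-G183V arrays (orange) lie below the 4 PAX5-WT arrays (blue). Right, 810 genes read in isolation batch 2: the 4 PAX5-G183V arrays lie above the 3 PAX5-WT arrays.

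Gene lists around PAX5 held few calls over both batches. Of 22 genes that PAX5 activates, 25 that it represses and 15 Groucho co-repressors and partners, 0 were called (limma; unadjusted p under 0.05 for 6, 8 and 0), with median differences of -0.04, 0.02 and 0.03 against 0.00 over all genes. In 4 of the 22 activated genes the difference changed upward between batches and in 1 downward (limma interaction term), against 1.84% of all genes. It changed downward in 3 of the 25 repressed genes and in 0 of the 15 others. The pooled fit can miss a difference that changes sign, so 0 calls do not show equal levels. Among the co-repressors that the octapeptide binds, Tle1 differed by -0.05 ± 0.08, Tle2 by -0.03 ± 0.08, Tle3 by 0.13 ± 0.08 and Tle4 by -0.06 ± 0.05, and Tle3 was higher in isolation batch 2 (0.30, adjusted p = 0.047). Of 24 B lineage transcription factors Ets1 alone was called, of 22 genes of B cell receptor signalling Themis2 alone, and of 16 genes of MHC class II presentation Rfx5 alone, all lower, where 0.146% of all genes were called; a single gene a list shows nothing particular to it. H2-Aa, an MHC class II chain gene, lay at -0.54 ± 0.30 in the pooled fit (adjusted p = 0.5) and was called in isolation batch 2 (-0.48, adjusted p = 0.0445) but not in isolation batch 1 (-0.58, adjusted p = 0.0906).

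Of 13 plasma cell identity, 29 cell cycle and 17 p53 and apoptosis genes 0 were called over both batches (limma; unadjusted p under 0.05 for 4, 8 and 7). In isolation batch 2, where 2.44% of all genes were higher and 1.85% lower, 4 of 13 plasma cell identity genes were lower and 5 of 29 cell cycle genes higher. The lower plasma cell genes included Jchain, Tnfrsf17, the plasma cell survival receptor (-0.59, adjusted p = 0.00113), and Tnfrsf13b, a receptor of the same family (-0.44, adjusted p = 0.00157). All 3 had a difference that changed between batches. The plasma cell list had a median difference of 0.18 in isolation batch 1, against -0.14 in isolation batch 2. Of the p53 and apoptosis genes 2 were higher and 3 lower in isolation batch 2, among them the pro-apoptotic genes Pmaip1 (0.58, adjusted p = 0.00455), Bcl2l11 (-0.65, adjusted p = 0.0181) and Bmf (-0.62, adjusted p = 0.0333). Their pooled differences of 0.38 ± 0.11, -0.47 ± 0.12 and -0.42 ± 0.14 did not pass. PAX5-Δ2-6 and MIR, on other arrays of isolation batch 2, differed in the same directions. Their means were 7.00 and 6.52 for Pmaip1, 5.01 and 5.60 for Bcl2l11, and 5.78 and 6.70 for Bmf. For Jchain they were 12.74 and 13.16, for Tnfrsf17 10.15 and 10.22, and for Tnfrsf13b 10.46 and 10.74. The cause was not tested.

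Lists of 21 genes of the unfolded protein response, 18 of cholesterol synthesis, 19 of MYC and ribosome biogenesis, 20 of glycolysis and hypoxia and 15 of adhesion and migration also had 0 pooled calls, with unadjusted p under 0.05 for 2, 3, 5, 5 and 3. Markers of other cell types were not called either, with limma passing 0 of the 13 fibroblast genes, 0 of the 12 T cell genes, 0 of the 14 myeloid genes and 0 of the 9 erythroid genes (unadjusted p under 0.05 for 3, 3, 2 and 0). Their mean levels ran from 3.70 to 3.83 in PAX5-WT and from 3.62 to 3.80 in PAX5-G183V for fibroblasts, from 4.94 to 5.07 and from 4.95 to 5.08 for T cells, from 4.29 to 4.37 and from 4.19 to 4.33 for myeloid cells, and from 3.85 to 4.10 and from 3.88 to 4.08 for erythroid cells. Within these lists the largest differences were those of Vim, the intermediate filament vimentin (-0.72 ± 0.21, adjusted p = 0.15), and Csf1r, the receptor of macrophage growth factor (-0.35 ± 0.08, adjusted p = 0.0697).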

How the data were processed

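Total RNA was labelled with a 3' IVT Express protocol and hybridised to arrays of 1 colour, per the labels' protocols. The authors deposited RMA values on the log2 scale for every probe set of each array, per the submitters' processing notes, with a version not given in the sources used here. The deposited values were used without change. In the platform annotation 28898 of 45141 probe sets name a single gene, 551 name several and 15692 name none, and the probe set with the highest mean stood for each of 17097 genes. The 16243 probe sets without a single gene were tested apart, with 0 called by limma (unadjusted p under 0.05 for 1377).

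R 4.3.3 with limma 3.58.1 (statmod 1.5.0 for random blocks) fitted all 40 arrays with terms for 6 groups, 2 plates and 2 isolation batches; the SE is limma's, with a median of 0.0771 that the number of arrays limits. A second fit had a term for each group in each isolation batch and plate, for batch-wise, crossed and interaction contrasts. Benjamini-Hochberg adjustment ran over the whole set of genes, with calls at 0.05. The procedure was tested on simulated data.

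Named were up to 15 called genes in each direction, up to 5 in each direction per isolation batch alone, genes called in both batches alone, the 5 largest changes between batches, 4 per list, and Pax5, Cd79a, Cd36, Ms4a1, Nav3, Fcgr2b, Asb9, Mycn and Tle1 to Tle4. The members, the rule and the 19 lists (363 genes, 324 measured, 3 by a synonym) were chosen with earlier results of these data known. Alternatives covered batch terms, transduction series, a replicate block, probe set choice, normalization, dim genes, limma settings, a 1.5-fold minimum and leaving out each array.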

Additional observations from a re-analysis of the deposited data

Results flagged for a closer look

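In 25 of the named genes the difference between PAX5-G183V and PAX5-WT changed from isolation batch 1 to isolation batch 2 (limma interaction term, adjusted p under 0.05; log2 difference in batch 2 minus that in batch 1). The changes were negative for P2ry10 (-5.06), Slamf6 (-3.60), Nav3 (-3.21), Gng2 (-3.14), Thbd (-1.67), Anxa9 (-1.48), Ppp1r17 (-1.48), Jchain (-1.25), Tnfrsf17 (-0.904), Tnfrsf13b (-0.574), Itgb1 (-0.488) and Pdia4 (-0.38). They were positive for Ms4a1 (2.42), Spib (1.82), Fcgr2b (1.81), Id3 (1.60), Ifitm3 (1.54), Siglecg (1.38), Ccr6 (1.35), Tubb2a (1.33), Grip2 (1.27), Mycn (1.06), Vav2 (0.971), S1pr2 (0.745) and Cdkn1a (0.681). Leaving out 1 array ended the call for Ccr6 (PAX5-WT replicate 5 or PAX5-G183V replicate 3), Grip2 (PAX5-G183V replicate 2), Itgb1 (PAX5-G183V replicate 3), and, in 8 of 14 cases each, Pdia4 and S1pr2.

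Ppp1r17, which encodes an inhibitor of a protein phosphatase, was lower in isolation batch 2 than in isolation batch 1 in PAX5-G183V, at -0.83 ± 0.15 (adjusted p = 0.000719), in PAX5-P80R, at -1.59 ± 0.16 (adjusted p = 5.62e-08), and in PAX5-Δ2-6, at -0.93 ± 0.16 (adjusted p = 0.000603). It was higher in isolation batch 2 in PAX5-WT, by 0.65 ± 0.15 (adjusted p = 0.00569), and in MIR, by 0.93 ± 0.15 (adjusted p = 0.000161).

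A single array stood apart from its group of 7 in 9 of 230 cases, where chance flags about 1 in 20. PAX5-G183V replicate 5 accounts for 4 of them, with Daxx at 8.40, Eef1akmt1 at 9.16, Hsp90b1 at 12.36 and Slc7a8 at 6.01. PAX5-G183V replicate 4 had Adgre1 at 3.23 and Vegfa at 7.95, PAX5-G183V replicate 6 Klf1 at 5.16, PAX5-G183V replicate 2 Lpxn at 5.68, and PAX5-WT replicate 7 Gbp3 at 4.50. Eef1akmt1 and Lpxn are among the 25 called genes. Without these arrays their adjusted p-values were 0.0646 and 0.0827.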

How the results depend on the processing

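The count of 25 genes depends on how batches and runs are modelled. It was 4 without batch terms, 1 with plate 1 alone, 1 with plate 2 alone, 40 with isolation batch 1 alone, 274 with isolation batch 2 alone, 1009 with 3 transduction series and 1 with 4 (median SE 0.175, 0 shared). It was 52 without dim genes, 43 with trend and robust settings, and 3 at 1.5-fold. Of the settings chosen after the data were seen, the averaged batch difference gave 124 and subtraction of PAX5-Δ2-6 minus MIR gave 0. Transductions 7 to 9 against 61 to 63 gave 739, and transductions 46 to 50 against 36 to 43 gave 1356, both with shifts between isolation batches left in. Leaving out 1 array gave 5 to 33, and under 17 without any 1 of PAX5-WT replicates 1, 2, 3, 5, 6 and 7 and PAX5-G183V replicates 1, 4, 5, 6 and 7. The other 7 settings gave 18 to 32, sharing 9 of the 25 with only the 2 groups and 18 to 24 in the other 6.

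With the replicate number as a block 16 genes were called, 13 of them shared; correlations of same-numbered arrays ran from -0.0407 to 0.0956, and 1 of 7 numbers was best matched by its own, so the numbers give no pairing.

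The 314 genes whose difference changed between batches became 198 with only the 2 groups, 557 with trend and robust settings, and 156 (without PAX5-G183V replicate 3) to 322 (without PAX5-WT replicate 2) with 1 array left out; those without PAX5-WT replicates 1 and 7 and PAX5-G183V replicates 1, 2 and 3 moved it by over 1.5 times. For wild-type response genes of at least 2-fold the median signed difference was -0.0145 in isolation batch 2 and -0.191 in isolation batch 1.

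Directions reversed in 12 cases. With 4 series Aldh3b1 was 0.121, Fam162b -0.0964 and Rfx5 0.027. In isolation batch 1 alone Anxa9 was 0.675, Gng2 1.27, Nav3 0.711 and P2ry10 2.23. Ppp1r17 was -0.658 in isolation batch 2 alone and -0.77 with 3 series. With transductions 46 to 50 against 36 to 43 Cyp51 was -0.275, Fam162b -0.0688 and Zbp1 -0.271. Of the other gene values, 3552 kept direction and call, 381 lost the call and 130 gained one. Themis2 and Ppef2 were called in 30 of 35 settings. The cause of these changes was not tested.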
